A study of Rattus norvegicus with 3 samples.

Results

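A group of 6 imprinted genes was looked up in single rat neurons: Nnat (neuronatin), Meg3, Ndn (necdin), Peg3, Igf2 and Dlk1. They were chosen on their readings in these same arrays and on what is known of them, so their levels are given here as a description, with no test. A probe set, the group of short array probes that reports a transcript, was taken for a gene only where the platform annotation named that gene and no other. By this rule 5 of the 6 genes had a value, in 9 of the 31042 probe sets that were not controls of the manufacturer, and Peg3 had no such probe set. Nnat, Ndn and Dlk1 had 1 probe set each, Meg3 had 2 and Igf2 had 4.

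The 3 arrays each carried amplified RNA from 1 soma, the cell body of a pyramidal neuron, which had been separated with a glass pipette. The neurons came from the hippocampus of Sprague-Dawley rat embryos at embryonic day 19, dissociated and cultured for 14 days without treatment. All 3 somata, called cells 1, 2 and 3 after their replicate number, belong to 1 group of untreated cells that carry no transgene or deletion named in the labels. The labels call them biological replicates but name no animal or dish, and an SD below therefore measures the spread between these 3 arrays, which may be technical.

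At an imprinted gene the copy inherited from one parent is silent and the copy from the other parent is read, and the difference is kept by DNA methylation laid down in the egg or sperm. Imprinted genes lie in clusters, in which a control region on one parental chromosome sets the state of several neighbours. In most tissues Nnat, Ndn, Peg3, Igf2 and Dlk1 are read from the paternal copy and Meg3 from the maternal copy. Several of them are known from the developing brain and from growth of the embryo. The arrays cannot tell the parental copies apart, so what follows concerns levels and not imprinting itself.

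In the rat RefSeq annotation of assembly GRCr8, Dlk1 and Meg3 are next to each other on chromosome 6, followed by Rtl1 and Dio3, and Meg3 holds the microRNA gene Mir770. Igf2 lies on chromosome 1 between H19 and Ins2, Ndn on the same chromosome beside Magel2 and Mkrn3, and Peg3 there between Usp29 and Zim1. Nnat lies on chromosome 3 inside the gene Blcap. Since Dlk1 and Meg3 are neighbours of one cluster with opposite parental expression, and only Meg3 read above background in these cells, their promoters are given from RefSeq (GRCr8). Each covers 250 bases before to 50 bases after the start, on the plus strand, at chr6:134192347-134192646 for Dlk1 and chr6:134273806-134274105 for Meg3. Capitals mark CG, the pair of bases at which mammalian DNA is methylated.
Dlk1: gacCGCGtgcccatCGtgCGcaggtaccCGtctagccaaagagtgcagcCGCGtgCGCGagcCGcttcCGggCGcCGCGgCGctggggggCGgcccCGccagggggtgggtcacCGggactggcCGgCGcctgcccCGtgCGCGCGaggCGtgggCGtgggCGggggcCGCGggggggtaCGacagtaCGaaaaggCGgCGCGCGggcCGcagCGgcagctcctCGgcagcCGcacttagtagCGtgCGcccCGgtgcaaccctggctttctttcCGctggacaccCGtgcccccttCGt
Meg3: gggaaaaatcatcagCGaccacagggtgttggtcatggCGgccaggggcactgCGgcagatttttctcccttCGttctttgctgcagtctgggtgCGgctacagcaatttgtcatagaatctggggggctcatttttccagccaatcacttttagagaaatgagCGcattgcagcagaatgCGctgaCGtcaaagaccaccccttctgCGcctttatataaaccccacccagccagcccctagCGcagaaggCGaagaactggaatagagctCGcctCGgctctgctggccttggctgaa

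The Dlk1 promoter holds 45 CG and 76% G or C, and 98.3% of the 33469 rat promoters of this length hold fewer CG. The Meg3 promoter holds 13 CG and 54.3% G or C, against medians of 7 CG and 51.7% over all promoters, and 64.7% of them hold fewer CG. The Meg3 window also has the letters TGACGTCA once, 66 bases before the start, and TATAAA 34 bases before it. These motifs, searched on both strands, occur in 1.83% and 14.2% of all promoters, and the TATAAA of Meg3 overlaps a match on the other strand. TGACGTCA is the palindrome that CREB and related factors are known to bind. Neither motif was found in the Dlk1 window, while that of Peg3 has TGACGTCA 190 bases before the start. Methylation and factor binding were not measured, and a match of letters is a description of the sequence alone.

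Levels are deposited log2 intensities. Because probes differ in affinity, a log2 value cannot be compared between probe sets as an amount of RNA, and each was placed by its percentile on its array and against a background. Background was the 95th percentile of 163 probe sets for genes that neurons should not read, made of 29 probe sets for odorant, vomeronasal and taste receptors and 134 for genes of other organs. It lay at 9.59 log2 in cell 1, 10.02 in cell 2 and 9.46 in cell 3. Of the 9 probe sets of the imprinted genes, 3 exceeded it in cell 1, against 9.82% of all probe sets. In cell 2 the count was 5 of 9 (7.72% of all), and in cell 3 it was again 5 of 9 (12.1% of all). In all 3 cells 3 of 9 were above it, against 2.89% of all probe sets, namely that of Nnat, 1 of Igf2 and 1 of Meg3, and without cell 1 the count was 5. With the 99th percentile of the silent probe sets as background, 2 of 9 were above it in all 3 cells, and Meg3 no longer passed in cell 1. The remaining pair of those seen in cells 2 and 3 were the second probe sets of Meg3 and Igf2, and the other 4 were below background in every cell. Since the genes were chosen from these readings, nothing is read from the counts.

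**Figure D1:**
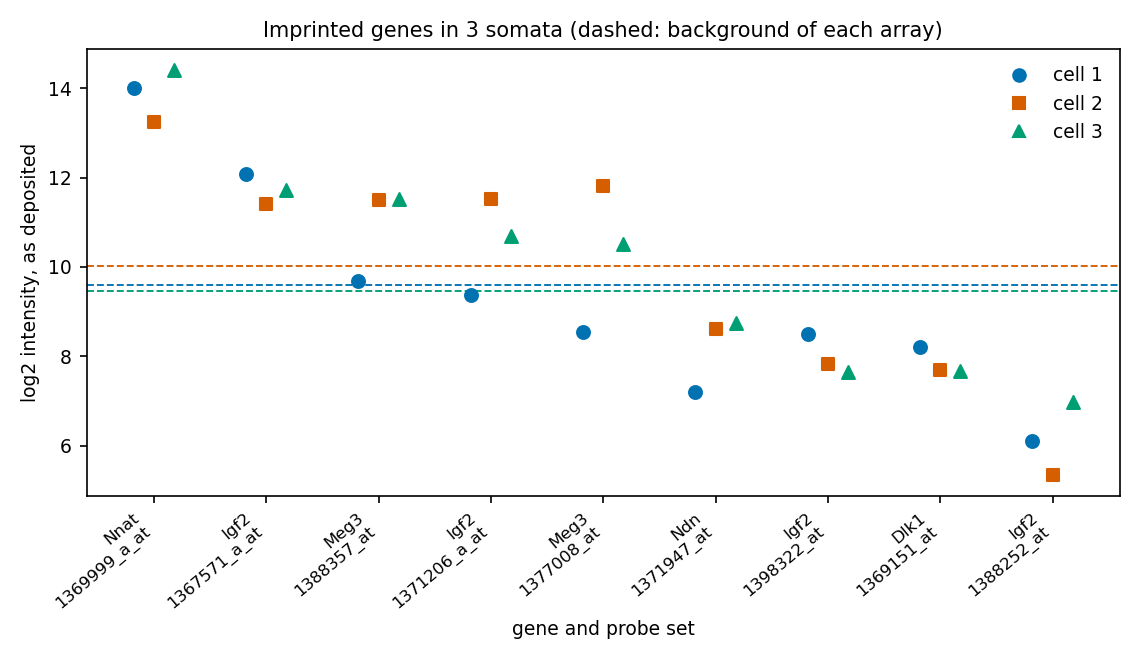
Deposited log2 intensity (vertical axis) of the 9 probe sets of Nnat, Igf2, Meg3, Ndn and Dlk1 (horizontal axis, ordered by their mean), with 1 symbol per soma and the background of each array as a dashed line of the same colour. Nnat stood between 13.25 and 14.42, above every other probe set shown, while Ndn, Dlk1 and 2 probe sets of Igf2 were below background in all 3 somata.

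Nnat was the brightest of the imprinted genes in each soma. It encodes neuronatin, a small membrane protein of the endoplasmic reticulum that is known to act on the calcium pump there and is abundant in developing neurons. Its probe set read 14.00, 13.25 and 14.42 log2 in the 3 cells, with a mean of 13.89 ± 0.59 (SD, n = 3 cells). Those values lay 4.41, 3.24 and 4.96 log2 above the background of the arrays, and no silent probe set reached them. Counted from the brightest of the 31042 probe sets, Nnat ranked 22 in cell 1, 46 in cell 2 and 13 in cell 3, which placed it at a percentile of 99.9 ± 0.0550.

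Igf2, which encodes insulin-like growth factor II, a secreted growth factor of the embryo, gave different readings with its 4 probe sets. The brightest, 1367571_a_at, read 12.08, 11.42 and 11.72 log2 in cells 1, 2 and 3 (mean 11.74 ± 0.33, percentile 98.8 ± 0.611). It was above background in all 3 cells, but 1 of the silent probe sets was brighter in each of them. That was 1388183_at, for the milk protein gene Csn1s1 (casein), at 12.17, 12.46 and 11.91 log2, singled out after its values were seen. Igf2 probe set 1371206_a_at read 9.36, 11.53 and 10.68, above background in cells 2 and 3 only. By contrast, 1398322_at read 8.49, 7.83 and 7.66, below background in every cell. The lowest was 1388252_at, at 6.10, 5.34 and 6.97, below the median of its array in each cell.

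From the brightest to the dimmest, the Igf2 probe sets spanned 5.98 log2 in cell 1, 6.20 in cell 2 and 4.75 in cell 3. Over the 290 genes with 4 probe sets the median span was 3.17, 3.55 and 3.53, and 94.8%, 91.7% and 75.2% of those genes had a smaller span. According to the platform annotation the 4 probe sets come from 2 source records, and 3 of them share 1 record. A level of Igf2 in these somata thus depends on which probe set is read. With the median of its probe sets in place of the brightest, Igf2 stood at a mean percentile of 88.4. Which probe set follows the transcript was not tested.

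Meg3 is a long non-coding RNA that stays largely in the nucleus and is known to bind chromatin-modifying complexes. It read above background with both probe sets in cells 2 and 3. For 1388357_at the values were 9.68, 11.50 and 11.51 log2 in cells 1, 2 and 3 (mean 10.90 ± 1.05, percentile 95.8 ± 4.32). In cell 1 that was 0.09 log2 above background, with 7 of the 163 silent probe sets at or above it, against 1 in cell 2 and 1 in cell 3. The second probe set, 1377008_at, read 8.55, 11.80 and 10.52 (mean 10.29 ± 1.64, percentile 90.6 ± 10.8) and was 1.04 log2 under the background of cell 1. The pair lay 1.13, 0.31 and 0.99 log2 apart in the 3 cells, and the median distance over the 3061 genes with 2 probe sets was 1.48, 1.55 and 1.60. Both thus put cell 1 lowest. Cells 2 and 3 were nearly equal in 1388357_at, and cell 2 read higher in 1377008_at.

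Its neighbour Dlk1, a membrane protein related to the ligands of Notch and known from immature cells, stayed under background. The probe set read 8.20, 7.69 and 7.67 log2 (mean 7.85 ± 0.30, percentile 66.2 ± 5.46), and 32, 48 and 40 silent probe sets read as high or higher. Of the other genes of this cluster, Begain read 8.14, 8.22 and 7.09 and Dio3, which inactivates thyroid hormone, 6.85, 7.33 and 7.17, all below background too. Within this stretch of the chromosome, Meg3 was the only gene of the 4 measured to pass.

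Ndn encodes necdin, a protein of the MAGE family that restrains the cell cycle and is known from neurons that no longer divide. It read 7.21, 8.60 and 8.74 log2 (mean 8.19 ± 0.85, percentile 70.1 ± 17.7), below background in all cells. Cell 1 was at the middle of its array, with 61 silent probe sets at or above Ndn, against 28 in cell 2 and 19 in cell 3. A value below background does not show that the transcript was absent.

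Ordered by the mean percentile of the brightest probe set, the genes ran Nnat (99.9), Igf2 (98.8), Meg3 (95.8), Ndn (70.1) and Dlk1 (66.2). The percentile ranges of Nnat and Igf2 did not overlap, since the lowest Nnat percentile was 99.855 and the highest of Igf2 was 99.5. Those of Igf2 and Meg3 overlapped, as did those of Ndn and Dlk1. Between the brighter Meg3 probe set and Ndn there was a gap, from 90.9 at the lowest Meg3 value to 81.2 at the highest Ndn value. The second Meg3 probe set left no gap. It stood at 78.5 in cell 1, under Ndn in cell 2 (79.3) and cell 3 (81.2). With the median of the probe sets of each gene, Igf2 stood at 88.4, below Meg3 at 95.03, which turns their order. The order holds probe affinity as well as RNA and does not rank the transcripts by abundance.

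Differences between cells were taken after quantile normalisation, which gives the arrays the same distribution, and called where they exceeded 1 log2, or 2-fold. Cell 2 exceeded cell 1 in 4 of the 9 probe sets (26.7% of all probe sets), and none was lower in cell 2 (24% of all). Cell 3 exceeded cell 1 in 5 of 9 (29.9% of all), and none was lower in cell 3 (24.1% of all). Between cells 3 and 2 there were 2 of 9 higher in cell 3 (20.7% of all) and 2 of 9 lower (19.3% of all). As 1 soma is 1 sample, these counts compare 3 arrays and have no replicate check.

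Not every one of these calls rests on readings above background. Meg3 1388357_at was above it in each cell, but in cell 1 by only 0.09 log2, and it did not pass the stricter background there. Its difference from cell 1 was 1.72 log2 in cell 2 and 1.59 in cell 3. Of all probe sets, 14.1% and 16.8% had a higher difference in the same pair of cells. Meg3 1377008_at and Igf2 1371206_a_at were not above background in cell 1, so their differences are bounds, taken against the background of cell 1 on the same scale. Meg3 1377008_at was at least 2.15 log2 higher in cell 2 and at least 0.70 higher in cell 3 than in cell 1. For Igf2 1371206_a_at the bounds were at least 1.86 and 0.86 log2, so for both the bound was under 2-fold in cell 3. Ndn and Igf2 1388252_at were counted among the calls although they were below background in every cell, and no difference is given for them.

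Between cells 3 and 2, Nnat was 1.08 log2 higher in cell 3, and above background in both. Meg3 1377008_at gave a difference of −1.45 log2, cell 3 being the lower, and Igf2 1371206_a_at was just past 2-fold lower in cell 3, likewise with readings above background in both cells. In cell 2 against cell 1 the difference was −0.63 log2 for Nnat and −0.84 for the brightest Igf2 probe set, each under 2-fold. Over all probe sets the 10th to 90th percentiles were −2.32 to 2.08 log2 for cell 2 minus cell 1, −2.51 to 2.06 for cell 3 minus cell 1 and −1.65 to 1.58 for cell 3 minus cell 2.

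Cell 1 also stood apart in some measures other than imprinted genes, though not in all of them. The 3′ probe set of the housekeeping gene Gapdh exceeded its 5′ probe set by 0.20 log2 in cell 1, 3.06 in cell 2 and 2.93 in cell 3. Of 16 probe sets for microglia 5, 1 and 0 were above background in cells 1, 2 and 3 (31.25%, 6.25% and 0%, summed intensities 11451, 6583 and 2364). The 1 in cell 2 was P2ry12 1368728_at at 12.04 log2, above the highest microglial reading of cell 1, 11.61. Of 22 probe sets for astrocytes 5, 0 and 1 were above background (22.7%, 0% and 4.55%, sums 10164, 4040 and 4637). For oligodendrocytes it was 3, 1 and 0 of 18 (16.7%, 5.56% and 0%, sums 12362, 4960 and 2878). Over all probe sets the shares were 9.82%, 7.72% and 12.1%. Each of the 3 lists was above that share in cell 1 and below it in cells 2 and 3. No array value is 0, and by the brightest probe set of each gene the lowest markers of the 3 lists were C1qa, Aldh1l1 and Cspg4. Their part in the differences between the cells was not tested.

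**Figure D2:**
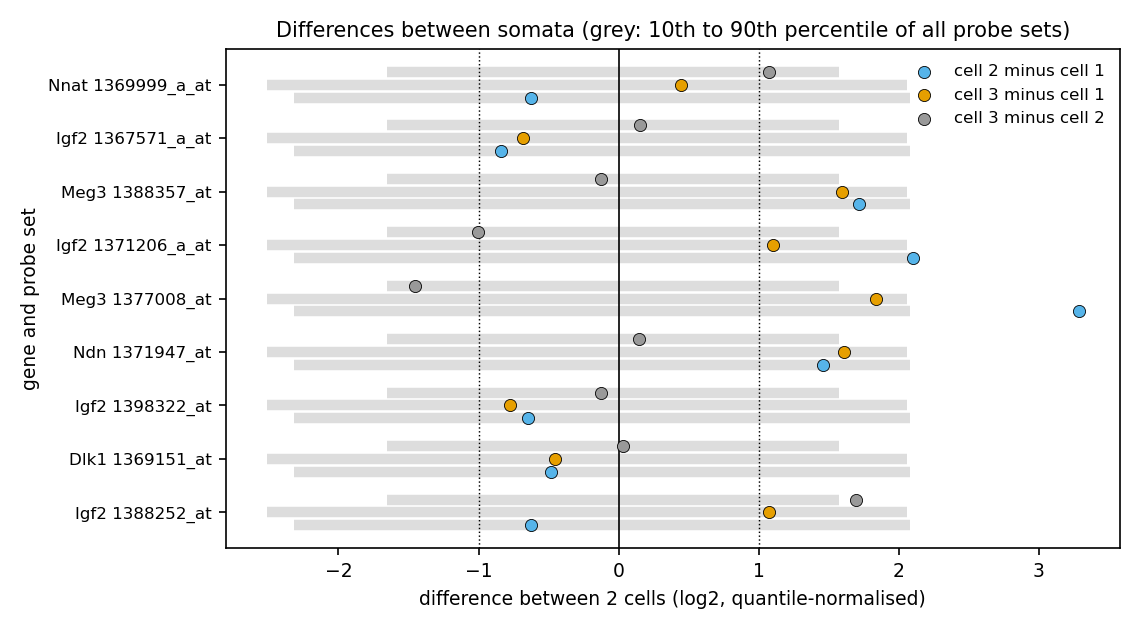
Difference between 2 somata in log2 after quantile normalisation (horizontal axis) for each probe set of the imprinted genes (vertical axis), with dotted lines at a 2-fold difference and grey bars for the 10th to 90th percentile of all 31042 probe sets in the same pair of cells. Points of Ndn, Dlk1, Igf2 1398322_at and Igf2 1388252_at compare readings below background, and those of Meg3 1377008_at and Igf2 1371206_a_at against cell 1 do so for cell 1. Meg3 1388357_at, above background in each soma but by only 0.09 log2 in cell 1, lay at 1.72 and 1.59 against cell 1.

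Nnat kept its place near the top of each array, and its largest difference was 1.08 log2 between cells 3 and 2. The SD over the cells, in log2 as deposited, ran from 0.30 for Dlk1 to 1.64 for Meg3 1377008_at, with a median of 0.82 over the 9 probe sets. Over all probe sets the median SD was 0.85, with 10th and 90th percentiles of 0.31 and 1.87. The median spread of the imprinted genes was thus close to that of all probe sets. However, 4 of the 9 probe sets were below background in every cell, and the median SD is that of 1 of them, Igf2 1388252_at.

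Expression of other imprinted genes was examined with a list of 61 genes, of which 48 had a single-symbol probe set and 75 probe sets in all. Above background were 5 of them in cell 1 (6.67%), 3 in cell 2 (4%) and 8 in cell 3 (10.7%), each share below that of all probe sets. None of the 75 was above background in all 3 cells, against 2.89% of all probe sets, and 13 were in at least 1. The share of all probe sets above background in at least 1 cell was not computed. Nothing is therefore read from counts of this kind, here or below. The median percentile of the other imprinted genes was 55.7, 54.7 and 51.9, close to the middle of the arrays. These genes were listed by imprinting, whereas the members were chosen on their readings, so nothing is read from the contrast between them. Whether each listed gene is imprinted in rat neurons was not tested.

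Nearest to Igf2, the non-coding RNA H19, read from the opposite parental copy, was below background at 7.18, 7.85 and 9.13 log2, and the insulin gene Ins2 at 6.50, 8.35 and 7.50. In the domains of Igf2 and Kcnq1 5 of 14 probe sets passed in at least 1 cell. Those were Cd81, a membrane protein of the tetraspanin family, at 8.92, 9.68 and 11.26, the potassium channel gene Kcnq1 at 10.09, 9.21 and 8.32, Nap1l4, and 2 probe sets of Tssc4. The lowest of this group by its brightest probe set was Phlda2, known for limiting growth of the placenta, at 5.60, 4.19 and 5.53.

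Blcap, which encloses Nnat, had 3 probe sets, and the brightest read 8.29, 9.56 and 9.59 log2, above background in cell 3 alone. In the Prader-Willi and Angelman region, where Ndn lies, 1 of 7 probe sets passed in any cell. It was that of Snrpn, a protein of the splicing machinery, at 9.86, 7.33 and 7.84. The ubiquitin ligase gene Ube3a read 6.52, 9.24 and 7.09 with its brightest probe set. Beside Peg3, Usp29 read 6.55, 7.03 and 9.22, below background in each cell.

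Among imprinted genes of other loci, 7 of 51 probe sets passed in at least 1 cell, and those of Gab1, Rasgrf1 and Impact (1375310_at) did so in 2. Rasgrf1, a calcium-dependent activator of Ras in neurons, read 7.56, 10.60 and 10.67 log2 with the brighter of its 2 probe sets and Gab1, an adaptor of growth factor receptors, 9.01, 10.84 and 10.75. In these, as in Meg3, cell 1 was lowest. Impact, a regulator of translation, read 10.49, 8.73 and 9.58 with 1375310_at, highest in cell 1, and 1 of its other 3 probe sets passed, in cell 1. The receptor adaptor gene Grb10 passed in cell 1 with 1 of 3 probe sets, at 11.05, 6.78 and 4.79, while the other two were below background in every cell and lowest in cell 1. By the brightest probe set of each gene, by which the lowest gene of every list is chosen here, Slc38a4, an amino acid transporter, was the lowest of this group at 7.91, 4.55 and 4.27.

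**Figure D3:**
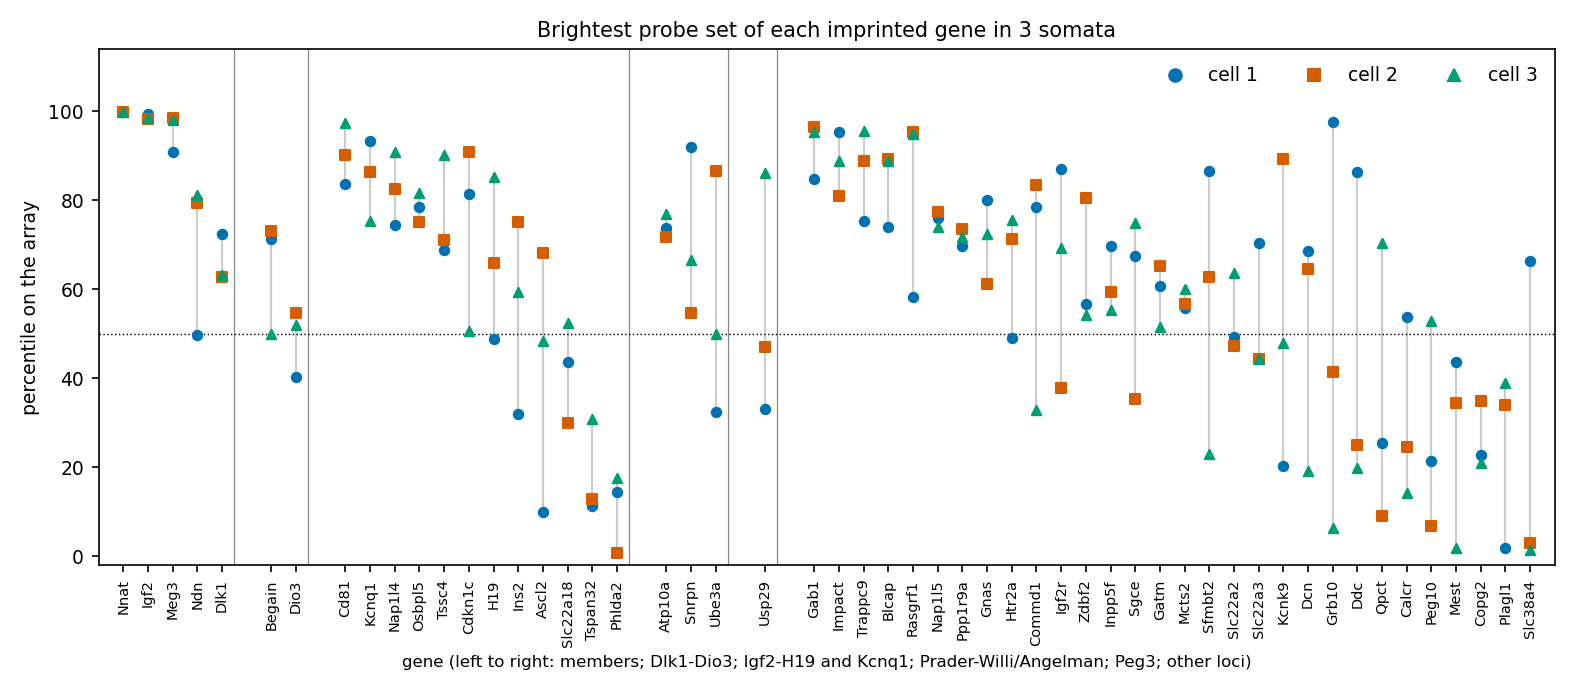
Percentile on the array (vertical axis) of the brightest probe set of each imprinted gene (horizontal axis, grouped by cluster between vertical lines), with 1 symbol per soma and a dotted line at the median. Nnat, Igf2 and Meg3 stood at or above a percentile of 90.9 in each soma, while Ndn ran from 49.6 to 81.2 and Dlk1 from 62.7 to 72.5. These 5 were chosen on their readings, so nothing is read from their contrast with the other 48 genes.

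Proteins that work with the members were described through gene lists drawn up from textbook roles. Earlier results of these data were known by then, so nothing is read from the shares of the lists. For Nnat, 12 genes of the calcium store of the endoplasmic reticulum had 21 probe sets, and 6, 3 and 5 of them (28.6%, 14.3% and 23.8%) were above background in cells 1, 2 and 3. Of all probe sets it was 9.82%, 7.72% and 12.1%. The brightest of 5 probe sets of Atp2a2, the calcium pump SERCA of most tissues, read 11.11, 11.76 and 12.05 log2, above background in each cell, while 1 more passed in cell 3 alone and 3 in no cell. Atp2a1, the pump of fast muscle, read 10.11, 10.36 and 11.20 with its 1 probe set, above background as well. Of 3 probe sets of Pln (phospholamban), which inhibits the pump in heart, 1 passed in each cell, at 12.08, 10.13 and 10.22, and 2 passed in none. By the brightest probe set of each gene, the calcium release channel Ryr2 was the lowest at 5.70, 6.36 and 6.23.

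For Ndn, 8 of the 12 listed genes of the MAGE family and its cell cycle and receptor partners were measured, with 8 probe sets. Of these 1, 2 and 4 were above background (12.5%, 25% and 50%, against 9.82%, 7.72% and 12.1% of all probe sets). Magee1, a MAGE family gene expressed in brain, passed in each cell at 11.10, 10.61 and 10.96 log2. Maged1 and Maged2, near relatives of necdin, read 8.41, 8.90 and 10.26, and 8.83, 10.53 and 10.13. The neurotrophin receptor gene Ngfr was lowest at 5.60, 6.20 and 6.00.

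For Igf2, 4, 2 and 1 of 32 probe sets of the IGF system passed (12.5%, 6.25% and 3.125%) and none in all cells, with 18 of 18 genes measured. Over all probe sets the shares were 9.82%, 7.72% and 12.1%, so the IGF share was the higher in cell 1 alone. The receptor through which the factor signals, Igf1r, read 9.03, 9.73 and 10.01 log2 with its brightest probe set, above background in cell 3. Igf2r, which clears the factor and is itself imprinted in rodents, read 9.22, 6.63 and 7.97 with its brighter one. The brighter of 2 probe sets of the binding protein gene Igfbp3 passed in cells 1 and 2 at 9.91 and 10.39 and read 6.29 in cell 3. For Dlk1, 1, 2 and 3 of 28 probe sets of 19 Notch pathway genes passed (3.57%, 7.14% and 10.7%), again none in all cells. Each share was below that of all probe sets. Of the 28, 3 passed in at least 1 cell, those of Dll4, Notch3 and Hey1, a count with no share over all probe sets beside it. The ligand gene Dll4 read 9.55, 11.16 and 11.47, the receptor gene Notch3 10.44, 9.95 and 10.08, and the target gene Hey1 8.38, 10.57 and 10.80, each with the brightest probe set of the gene. The lowest gene by its brightest probe set was the ligand gene Dll1, at 5.53, 4.83 and 5.75. In the IGF list it was Igfals, which carries IGF in the blood, at 4.78, 4.98 and 6.07.

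**Figure D4:**
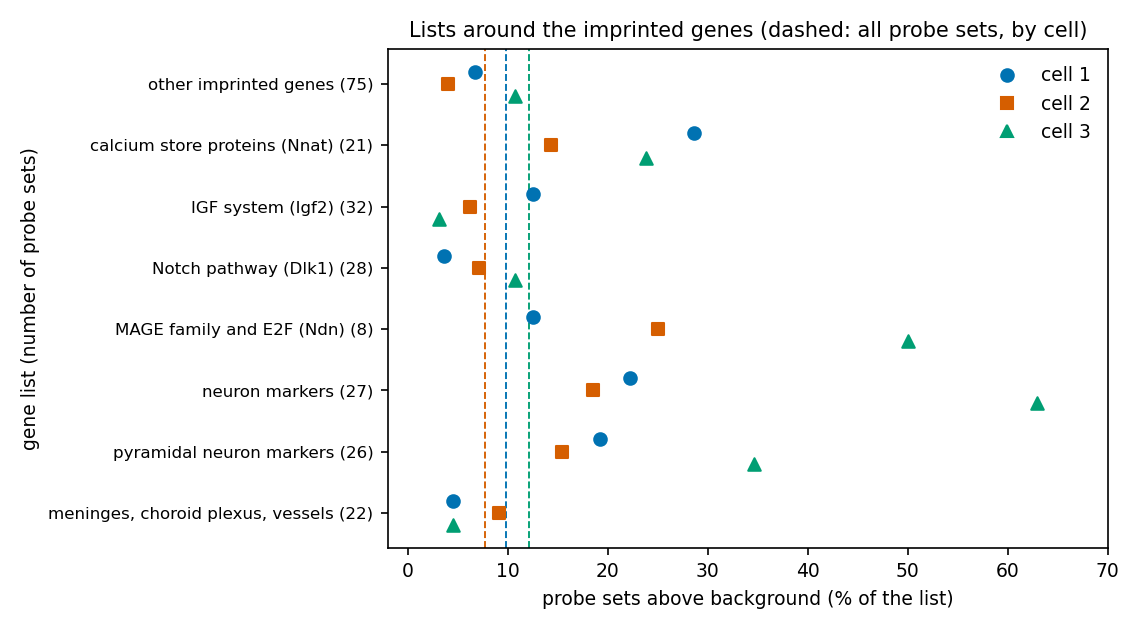
Share of the probe sets of each gene list that read above background (horizontal axis, in %), with the number of probe sets in brackets, 1 symbol per soma and dashed lines for the share of all probe sets in each soma. Other imprinted genes lay to the left of the line of their own soma in each case, at 4% to 10.7%, and neuron markers to the right, reaching 63.0% in cell 3.

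The label of the cells was checked with marker genes. Of 27 neuron probe sets 6, 5 and 17 (22.2%, 18.5% and 63.0%) were above background in cells 1, 2 and 3, and 10 were in no cell. Of 26 for pyramidal neurons 5, 4 and 9 (19.2%, 15.4% and 34.6%) were above it, and 16 were in no cell. The shares over all probe sets were 9.82%, 7.72% and 12.1%. Above background in all cells were Mapt (12.92, 13.28 and 13.97 log2 with its brightest probe set), Gap43, Stmn3 and Syp among the neuron genes, and Neurod2 (12.88, 13.40 and 13.35), Zbtb20, Camk2b and Nrgn among the pyramidal ones. By their brightest probe sets, Uchl1 and Tbr1 were the lowest genes of these lists, below background in each cell. Every probe set of Map2, Syt1 and Elavl4 among the neuron genes was also below it in each cell. The same held for Slc17a7, Camk2a and Gria2 among the pyramidal ones. Of 10 probe sets for interneurons 1 passed in each cell and none in all. Calb2 (calretinin) passed in cells 1 and 3, at 11.06 and 11.76, and read 9.51 in cell 2, where the peptide gene Vip passed at 10.66. Gad1 and Gad2, the enzymes that make GABA, were below background in each cell, Gad1 reaching 9.96 in cell 2, and Gad2 was the lowest of that list. Igf2 is known from the meninges, the choroid plexus and vessels, and of 22 probe sets for these 1, 2 and 1 passed, with summed intensities of 9870, 11041 and 9911. Vwf, a protein of vessel walls, was the brightest at 12.45, 12.65 and 12.66, and Lum the lowest by the brightest probe set of each gene, at 5.98, 5.09 and 4.02. Whether RNA of such cells contributed to the Igf2 reading was not tested.

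The probe sets most like each gene were found by the root mean square distance of the quantile-normalised log2 values over the 3 cells, among 20822 to 20825 single-symbol probe sets of other genes. For Nnat the nearest were Prpf18, Eeig2 and Stmn4, at 0.446, 0.454 and 0.477 log2. Meg3 1388357_at had closer neighbours in Cdk9, Setd5 and Adam15, at 0.0545, 0.0738 and 0.0847. Nearest to Ndn were Sc5d, Mrpl37 and LOC102555491, and nearest to Dlk1 were Pqbp1, St3gal4 and Slc25a21, at 0.0606 to 0.0860 and 0.0637 to 0.0683. For the brightest Igf2 probe set they were Spata19, Pfkm and Tead3, at 0.135, 0.208 and 0.241. None of these was on the list of imprinted genes, and with so many probe sets and 3 cells a close match carries no information on shared function.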

How the data were processed

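The authors deposited 1 log2 intensity per probe set for 3 rat expression arrays, and RMA 2.0 is the tool in the submitters' processing notes. RNA went through repeated antisense RNA amplification, which favours 3′ ends and can distort levels. The study's methods, written for other samples, centre and scale arrays, but the deposited log2 values had medians of 7.23, 7.16 and 7.09 and were not scaled. No genome build was stated (not given in the sources used here). Of 31099 probe sets, 57 controls were left out, and 20826 of the rest had 1 gene symbol, 436 several and 9780 no entry. The number of arrays limits the precision, and no p-value was computed.

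Percentiles, background and differences were computed in Python 3.11.15 with pandas 2.3.3 and NumPy 2.4.6 (figures: matplotlib 3.10.9), and the scripts were tested on simulated data. Members and lists were chosen with earlier results of these data known. Named genes were all members, the genes of each list above background in all cells or lowest by their brightest probe set, the nearest neighbours in the genome, and the 3 most alike probe sets per gene. Others were named after their values were seen, as examples of a count. Alternatives were values as deposited or centred and scaled, a stricter background and fold, the median probe set, and leaving out each cell.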

Additional observations from a re-analysis of the deposited data

How the results depend on the processing

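With 3 arrays of 1 group, the results are levels, counts and differences without a test. Under other scalings, mean log2 levels moved by less than the SD between cells in 18 of 18 cases, while leaving out 1 of 3 cells cannot move a mean by more than that and bears on nothing. Of 85 other values, 18 changed by more than the spread between cells or, for counts, by over 1.5 times. Many of the 85 could hardly move. Leaving out a cell cannot move a percentile past its SD either. Another setting left out probe sets marked _s_at or _x_at, of which the members have none. A further setting kept only member probe sets whose mean passed background. The 18 of 85 therefore does not measure how far the results depend on processing. With the 99th percentile of the silent probe sets as background, 3 member probe sets instead of 5 passed in cell 3, 2 instead of 3 in cell 1 and in all 3 cells, and other imprinted probe sets fell to 0, 1 and 1 in cells 1, 2 and 3 and to 2 in at least 1 cell. Leaving out each cell in turn gave 3 to 5 member probe sets above background in all remaining cells, the 5 without cell 1. Other imprinted probe sets above it in all remaining cells numbered 0 to 2 (2 without cell 1 and 1 without cell 2), and in at least 1 cell 8 to 12 (8 without cell 3). With the median of its probe sets, Igf2 stood at a percentile of 88.4. At 4-fold, 2 member probe sets were higher in cell 2 than in cell 1, and 0 differed in cell 3 against cell 1 upward or against cell 2 in either direction. The 2 were Meg3 1377008_at and Igf2 1371206_a_at, neither above background in cell 1. For Igf2 the bound, at least 1.86 log2, is under 4-fold. After centring and scaling, 1 member probe set was lower in cell 2 than in cell 1, and 1 was higher and 1 lower in cell 3 than in cell 2. On values as deposited, 1 was lower in cell 3 than in cell 2, since 1 difference lies at the 2-fold limit. No paired analysis was possible because there is 1 group. Signal over background limits what can be said of Ndn and Dlk1, for which only an upper bound at background was measured.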
